A study of Homo sapiens with 15 samples.

Results

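The tubulin genes followed here in K562 cells treated with martinostat numbered 10, 4 for alpha-tubulin (TUBA1A, TUBA1B, TUBA1C and TUBA4A) and 6 for beta-tubulin (TUBB, TUBB2A, TUBB2B, TUBB3, TUBB4B and TUBB6). They were chosen by name, because tubulin is a substrate of the deacetylase HDAC6, and found through the Ensembl identifiers of the count table, with the version dropped. All 10 were present among the 60649 genes of that table, and all 10 passed the filter on low counts that left 23711 genes for testing.

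K562 is an established human line of chronic myeloid leukaemia, and martinostat is an inhibitor of histone deacetylases (HDACs). Poly(A) RNA was sequenced from untreated cells and from cells kept for 24 h in martinostat at 0.15, 0.25, 0.5 or 1 µM. The 5 groups held 3 libraries each, labelled as biological replicates, 15 libraries in all. For no group do the labels name a further agent or a genetic change. The labels name no vehicle for the untreated cells, so treatment and any solvent cannot be told apart. A single line was used, and total counts ranged from 23755510 to 32805574 per library.

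Alpha- and beta-tubulin pair as heterodimers, and the dimers polymerise into microtubules, which carry cargo, shape the cell and form the mitotic spindle. Humans have several genes for each partner, called isotypes, which encode closely similar proteins: TUBA1B, TUBA1C, TUBB and TUBB4B are broadly expressed, TUBA1A, TUBB2A and TUBB2B are best known from the nervous system, and TUBB3 is widely used as a neuronal marker. Acetylation of alpha-tubulin inside the microtubule is added by ATAT1 and removed by HDAC6 and SIRT2. Tubulin mRNA is also degraded when free dimers accumulate, through TTC5, which recognises the emerging tubulin chain. Messenger RNA was measured here, and neither protein nor acetylation.

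The 10 genes lie on 6 chromosomes. TUBA1B, TUBA1A and TUBA1C are neighbours on chromosome 12, and TUBB2A and TUBB2B lie 65.8 kb apart on chromosome 6. Promoter sequence upstream of the main transcript's start site is shown for the genes that fell (TUBA1B, TUBB) and a pair that rose (TUBB2B, TUBB4B). Each is from RefSeq on GRCh38.p14, 5′ to 3′ on the gene's strand, and ends before the first annotated exon base at that start site. The annotation used for lengths begins TUBB and TUBB2B further upstream, so their stretches lie within the annotated genes. Capitals mark the CCAAT box, the GC box in the form GGGCGG, and the TATA box in the form TATAAA, on either strand.
TUBA1B (GRCh38.p14, chr12:49131398-49131605, minus strand): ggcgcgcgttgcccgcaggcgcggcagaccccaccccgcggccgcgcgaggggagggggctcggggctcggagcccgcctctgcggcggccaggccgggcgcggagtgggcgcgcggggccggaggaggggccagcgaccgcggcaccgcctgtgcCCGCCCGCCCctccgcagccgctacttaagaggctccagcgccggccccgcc
TUBB (GRCh38.p14, chr6:30720102-30720351, plus strand): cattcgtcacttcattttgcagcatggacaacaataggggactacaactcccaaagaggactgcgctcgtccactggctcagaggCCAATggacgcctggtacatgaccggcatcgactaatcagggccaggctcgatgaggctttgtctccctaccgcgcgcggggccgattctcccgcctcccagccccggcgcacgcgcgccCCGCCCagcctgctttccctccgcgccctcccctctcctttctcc
TUBB2B (GRCh38.p14, chr6:3227657-3227903, minus strand): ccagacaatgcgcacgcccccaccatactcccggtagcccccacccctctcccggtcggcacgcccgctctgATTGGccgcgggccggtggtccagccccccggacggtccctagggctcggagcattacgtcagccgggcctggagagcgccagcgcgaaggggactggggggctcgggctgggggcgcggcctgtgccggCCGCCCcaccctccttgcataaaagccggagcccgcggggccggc
TUBB4B (GRCh38.p14, chr9:137241037-137241286, plus strand): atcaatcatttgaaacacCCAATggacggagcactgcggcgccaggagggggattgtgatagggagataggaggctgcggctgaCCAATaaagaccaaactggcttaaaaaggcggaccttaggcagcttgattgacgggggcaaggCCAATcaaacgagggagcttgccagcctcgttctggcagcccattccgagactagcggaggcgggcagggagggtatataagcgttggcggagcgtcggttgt
In windows from 250 bases before to 50 bases after a start site, CCAAT on either strand was found for 7 of the 10 genes in at least 1 window, against 34.6% of all 35116 RefSeq promoter windows of the same length. GGGCGG, the letters of the GC box, was found for 8 of 10, against 45.0% of all windows. TATAAA was found for TUBB2A only among the 10, against 11.5% of all windows. TUBB, TUBA1C, TUBB3 and TUBB6 had several windows each, so these counts per gene and the shares per window are not like for like. TUBB, which fell, and TUBB2B, which rose, each held 1 CCAAT and 1 GGGCGG in the window at the start of the main transcript.

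Some features of the libraries bear on every value below. Levels are given as CPM, a count divided by the total count of its library in units of 1000000 and scaled by edgeR's TMM factors, which were 0.784 to 0.828 in untreated and 0.95 to 1.284 in treated libraries. The third replicates at 0.25 and 0.5 µM had the highest factors, 1.284 and 1.223, and stood apart from the other libraries on the third principal component. Scaled by library totals in place of TMM, the median over the tested genes of the log2 fold change moved up by 0.36 at the lowest concentration, then 0.53, 0.38 and 0.35. The share of called genes that were higher at 1 µM was 58.5% with TMM and 69.3% with library totals, and at 0.15 µM it was 62.2% and 81.9%. With TMM factors computed only on genes above 10 CPM it was 70.1% at 1 µM and 75.8% at 0.15 µM. The 10 genes took 0.414 to 0.435% of all counts in untreated libraries, 0.298 to 0.391% at 0.15 and 0.25 µM, and 0.516 to 0.835% at 0.5 and 1 µM. RNA came from whole cultures, so fewer cells of a kind and less RNA per cell cannot be told apart.

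Of the 10 genes, 9 differed among the 5 groups, TUBB6 being the exception (edgeR quasi-likelihood test, Benjamini-Hochberg adjusted p = 0.599 for TUBB6), where 73.6% of all tested genes differed. At 1 µM, TUBA1A, TUBA4A, TUBB2A, TUBB2B, TUBB3 and TUBB4B were higher than in untreated cells and TUBA1B and TUBB were lower. These were 6 of 10 genes higher and 2 of 10 lower, where 38.8% of all tested genes were called higher and 27.5% lower. The same genes were called at 0.5 µM, 6 higher and 2 lower, against 39.4% and 27.6% of all tested genes. At 0.15 µM, 5 were higher and 3 lower, against 31.9% and 19.4% of tested genes. At 0.25 µM the numbers were again 5 and 3, against 37.4% and 24.8%. At both of these concentrations TUBB4B was not among the 5, and TUBA1C was the additional gene called lower. All 6 genes called higher at 1 µM had risen more than 4-fold, 6 of 10 genes beside 24.9% of all tested genes. Of all tested genes, 9193 were called higher at 1 µM, and 5898 were called and more than 4-fold higher. TUBB3 was close to the detection limit in untreated cells and passed the filter on low counts through treated libraries alone. It is among the genes counted as higher than untreated at each concentration. With at least 10 counts required in every library it was not tested. The median log2 fold change of the 10 genes was 0.52 at 0.15 µM and 2.42 at 1 µM, beside 0.28 and 0.32 for all tested genes. With the third replicates at 0.25 and 0.5 µM left out, a choice made after seeing the data, 8 of the 10 genes were called at 0.15 µM and 9 at each higher concentration, where 57.2, 62.4, 66.0 and 69.9% of all tested genes were called in either direction.

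**Figure D1:**
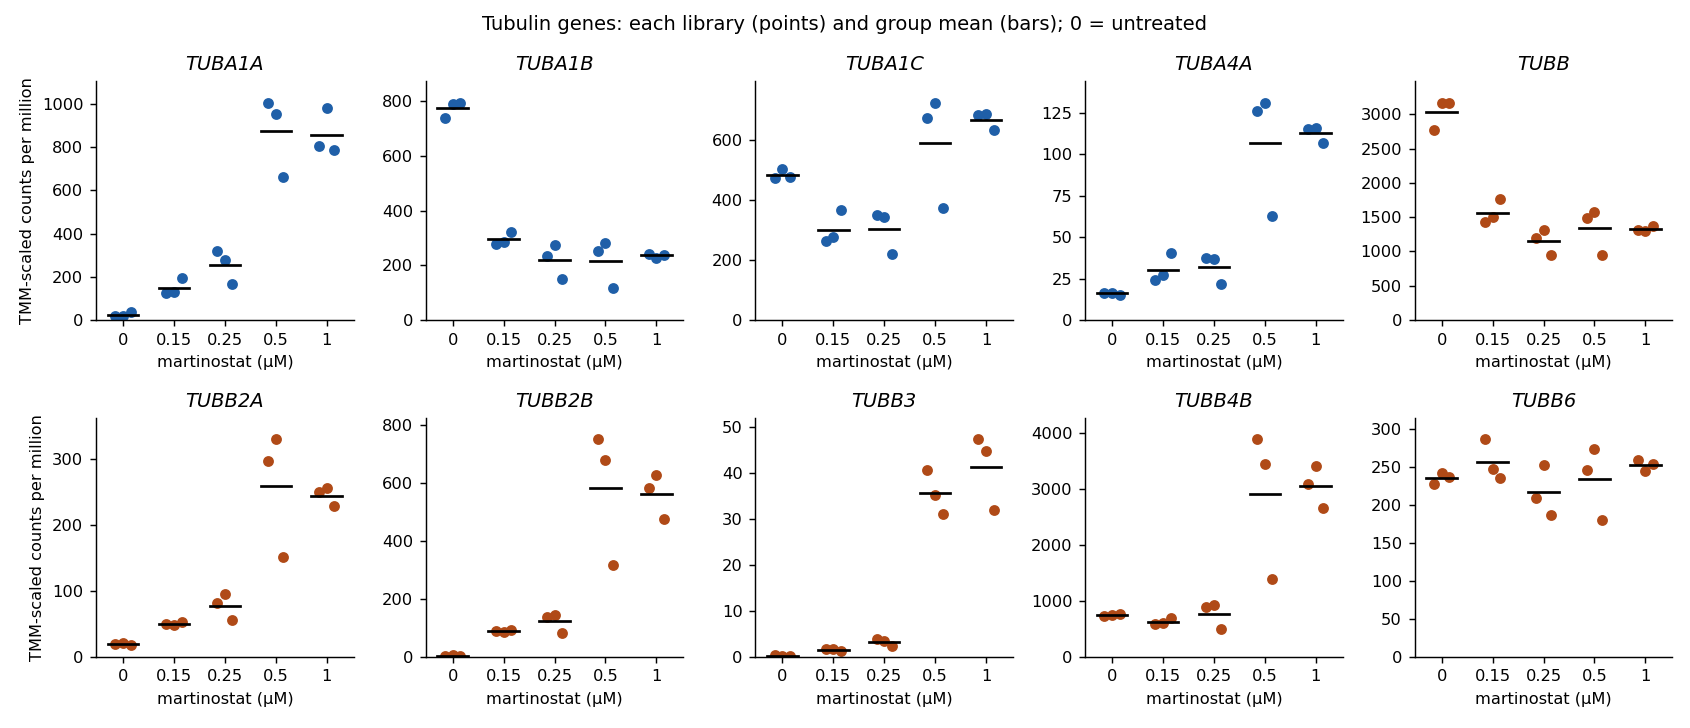
Level of each tubulin gene in TMM-scaled CPM (y axis, from 0, its own scale in each panel) by martinostat concentration in µM (x axis, 0 = untreated). Points are the 3 libraries of a group and black bars their mean; TUBA1B and TUBB stand highest in untreated cells, and the rise of TUBA1A, TUBA4A, TUBB2A, TUBB2B, TUBB3 and TUBB4B is steepest between 0.25 and 0.5 µM.

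Among the alpha-tubulin genes, TUBA1A rose from a low level to the highest CPM of the 4. It is the alpha isotype best known from developing neurons. Its 3 untreated libraries held 17.9, 18.4 and 35.8 CPM, and the groups rose to 125, 128 and 195 CPM at 0.15 µM, 320.4, 278 and 168 CPM at 0.25 µM, 1004, 953 and 661 CPM at 0.5 µM, and 802, 979 and 786 CPM at 1 µM. Every treated library was above every untreated one. The log2 fold change against untreated was 2.63 ± 0.30 (SE), 3.41 ± 0.31, 5.18 ± 0.34 and 5.15 ± 0.33 with rising concentration, n = 3 libraries a group. The edgeR adjusted p was 1.58e-06 at 0.15 µM and 5.67e-10 at 1 µM.

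TUBA1B, a ubiquitous alpha isotype and the leading one in untreated cells, moved the other way. It was at 739.8, 791 and 794 CPM in untreated libraries, 279, 286 and 320.2 CPM at 0.15 µM, 234, 276 and 150.0 CPM at 0.25 µM, 254, 281 and 116 CPM at 0.5 µM, and 242, 227 and 239 CPM at 1 µM. No treated library reached the lowest untreated one, and the fall was already in place at the lowest concentration. The log2 fold change was -1.39 ± 0.25 at 0.15 µM and -1.72 ± 0.26 at 1 µM (edgeR adjusted p = 0.000188 and 1.26e-05), and the change from 0.15 to 1 µM was -0.32 ± 0.25 (edgeR adjusted p = 0.316). The range of 1.96 SE around that change ran from -0.81 to 0.17. At 1 µM TUBA1B was 3.28-fold lower than in untreated cells.

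TUBA1C, the other broadly expressed alpha isotype, went down and then up. It was at 472, 503 and 476 CPM in untreated libraries, 262, 276 and 365 CPM at 0.15 µM, 349, 342 and 219 CPM at 0.25 µM, 672, 723 and 373 CPM at 0.5 µM, and 682, 687 and 632 CPM at 1 µM. At 0.15 µM the 3 libraries were below the untreated ones (log2 fold change -0.68 ± 0.22, edgeR adjusted p = 0.0143), and at 1 µM they were above them, without passing the threshold (0.46 ± 0.22, edgeR adjusted p = 0.0696). The rise from 0.15 to 1 µM did pass (1.15 ± 0.22, edgeR adjusted p = 0.000329). The calls against untreated cells depended on the scaling: with library totals, TUBA1C was not called at 0.15 µM (-0.33, edgeR adjusted p = 0.0891) and was called higher at 1 µM (0.82, edgeR adjusted p = 0.000184). They also rested on single libraries. The call at 0.15 µM was lost without replicate 1 or replicate 2 of that group (edgeR adjusted p = 0.0677 and 0.0565) and the call at 0.25 µM without its replicate 3 (edgeR adjusted p = 0.0709). TUBA1C was called higher at 0.5 µM without replicate 3 of that group (0.53, edgeR adjusted p = 0.0147). At 1 µM it was called higher under 14 of 27 alternatives, DESeq2 (0.53, adjusted p = 0.0406) and limma on log2(FPKM + 1) (0.70, adjusted p = 0.000921) among them, and also without replicate 3 at 0.15, 0.25 or 0.5 µM (edgeR adjusted p = 0.0359, 0.0239 and 0.0159). Over these alternatives the log2 fold change at 1 µM ran from 0.44 to 0.85 and the adjusted p from 5.98e-05 to 0.148.

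TUBA4A, an alpha isotype that is abundant in platelets and lacks the encoded terminal tyrosine of the other alpha-tubulins, was low in untreated cells and rose. The untreated libraries held 16.5, 16.4 and 15.2 CPM, those at 0.15 µM 24.0, 27.0 and 40.2 CPM, at 0.25 µM 37.7, 36.8 and 22.0 CPM, at 0.5 µM 126, 131 and 62.9 CPM, and at 1 µM 115, 116 and 107 CPM. The treated libraries did not overlap with the untreated ones at any concentration. Its log2 fold change was 0.92 ± 0.26 at 0.15 µM and 2.81 ± 0.27 at 1 µM (edgeR adjusted p = 0.00659 and 8.47e-08).

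TUBB, the main beta isotype of most dividing cells, had the highest CPM of the 10 genes in untreated cells and fell. Its values were 2775, 3168 and 3163 CPM in untreated libraries, 1434, 1497 and 1769 CPM at 0.15 µM, 1202, 1311 and 944 CPM at 0.25 µM, 1488, 1577 and 951 CPM at 0.5 µM, and 1318, 1295 and 1369 CPM at 1 µM. All treated libraries were below all untreated ones. From the lowest concentration up, the changes were -0.95 ± 0.19, -1.40 ± 0.19, -1.18 ± 0.19 and -1.19 ± 0.19 on the log2 scale (edgeR adjusted p = 0.000385 at 0.15 µM and 2.24e-05 at 1 µM), which at 1 µM is 2.29-fold lower.

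TUBB4B, the second broadly expressed beta isotype and a component of ciliary microtubules, was near its untreated level up to 0.25 µM and then rose. It was at 731, 743 and 757 CPM in untreated libraries, 581, 597 and 687 CPM at 0.15 µM, 888, 927 and 492 CPM at 0.25 µM, 3883, 3442 and 1383 CPM at 0.5 µM, and 3085, 3414 and 2659.8 CPM at 1 µM. The third replicate was the lowest of its group at both 0.25 and 0.5 µM. The log2 fold change was -0.26 ± 0.29 at 0.15 µM and 0.05 ± 0.29 at 0.25 µM, neither of them called (edgeR adjusted p = 0.481 and 0.896), then 1.96 ± 0.30 and 2.04 ± 0.30 (edgeR adjusted p = 1.58e-05 and 1.08e-05). Without the third replicates at 0.25 and 0.5 µM, TUBB4B at 0.25 µM was 0.31 higher on the log2 scale than in untreated cells and passed the threshold (edgeR adjusted p = 0.0437).

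TUBB2B and TUBB2A, neighbouring and nearly identical genes for class II beta-tubulin, the main beta class of brain, both rose. TUBB2B was at 4.29, 4.63 and 3.44 CPM in untreated libraries, 90.1, 85.7 and 91.4 CPM at 0.15 µM, 139, 145 and 82.1 CPM at 0.25 µM, 750.2, 681 and 318 CPM at 0.5 µM, and 583, 629 and 474 CPM at 1 µM. TUBB2A was at 18.8, 21.4 and 18.1 CPM in untreated libraries, 50.3, 47.6 and 53.3 CPM at 0.15 µM, 81.2, 95.7 and 56.3 CPM at 0.25 µM, 297, 330.1 and 151 CPM at 0.5 µM, and 249.7, 256 and 229 CPM at 1 µM. The order of the pair was reversed by treatment: TUBB2B had 0.211 ± 0.0194 (SD, n = 3) counts for each count of TUBB2A in untreated cells and 2.29 ± 0.20 at 1 µM. On the log2 scale the change of TUBB2B was 4.43 ± 0.31 at 0.15 µM and 7.09 ± 0.34 at 1 µM (edgeR adjusted p = 2.92e-09 and 9.72e-12), and that of TUBB2A was 1.37 ± 0.23 and 3.65 ± 0.25 (edgeR adjusted p = 8.08e-05 and 4.8e-10). At 1 µM these were 136-fold and 12.6-fold.

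TUBB3, class III beta-tubulin, was close to the detection limit in untreated cells, with 8, 5 and 7 counts in the 3 libraries. It was at 0.327, 0.193 and 0.274 CPM in untreated libraries, 1.65, 1.69 and 1.24 CPM at 0.15 µM, 3.90, 3.33 and 2.43 CPM at 0.25 µM, 40.6, 35.3 and 31.1 CPM at 0.5 µM, and 47.3, 44.7 and 32.0 CPM at 1 µM. These groups did not overlap up to 0.5 µM, and the last 2 did. The log2 fold change was 2.51 ± 0.32, 3.58 ± 0.30, 7.05 ± 0.29 and 7.27 ± 0.29 with rising concentration (edgeR adjusted p = 2.49e-06 at 0.15 µM and 2.79e-13 at 1 µM). The 154-fold rise at 1 µM was the highest value of the 10 genes and lay within its error of that of TUBB2B. Of its main transcript, 92.8% lies under exons of a readthrough gene on the same strand (ENSG00000198211) that had 0 counts in all 15 libraries. The TUBB3 counts may therefore leave out reads from that stretch, so its level is uncertain beside those of other genes and is given below with that limit.

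TUBB6, class V beta-tubulin, was not called at any concentration in the fit reported here, with TMM factors from all tested genes. Its libraries held 227, 242 and 237 CPM untreated, 286, 247 and 235 CPM at 0.15 µM, 209, 253 and 187 CPM at 0.25 µM, 246, 274 and 180.5 CPM at 0.5 µM, and 259, 245 and 254 CPM at 1 µM. The log2 fold changes were 0.12 ± 0.16, -0.12 ± 0.16, -0.01 ± 0.16 and 0.10 ± 0.16 (edgeR adjusted p = 0.523 to 0.951), and at 1 µM the range of 1.96 SE ran from -0.21 to 0.41. The 3 libraries at 1 µM were above the untreated ones, and at the other concentrations the libraries overlapped. The calls depended on the scaling: with libraries scaled by their totals, TUBB6 was called higher than in untreated cells at all 4 concentrations (0.48, 0.39, 0.34 and 0.46, edgeR adjusted p = 0.00256, 0.00804, 0.0172 and 0.00262). With TMM factors from genes above 10 CPM it was called higher at 0.15, 0.5 and 1 µM (0.39 at 0.5 µM, edgeR adjusted p = 0.0129). With at least 10 counts in every library it was called higher at 1 µM.

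**Figure D2:**
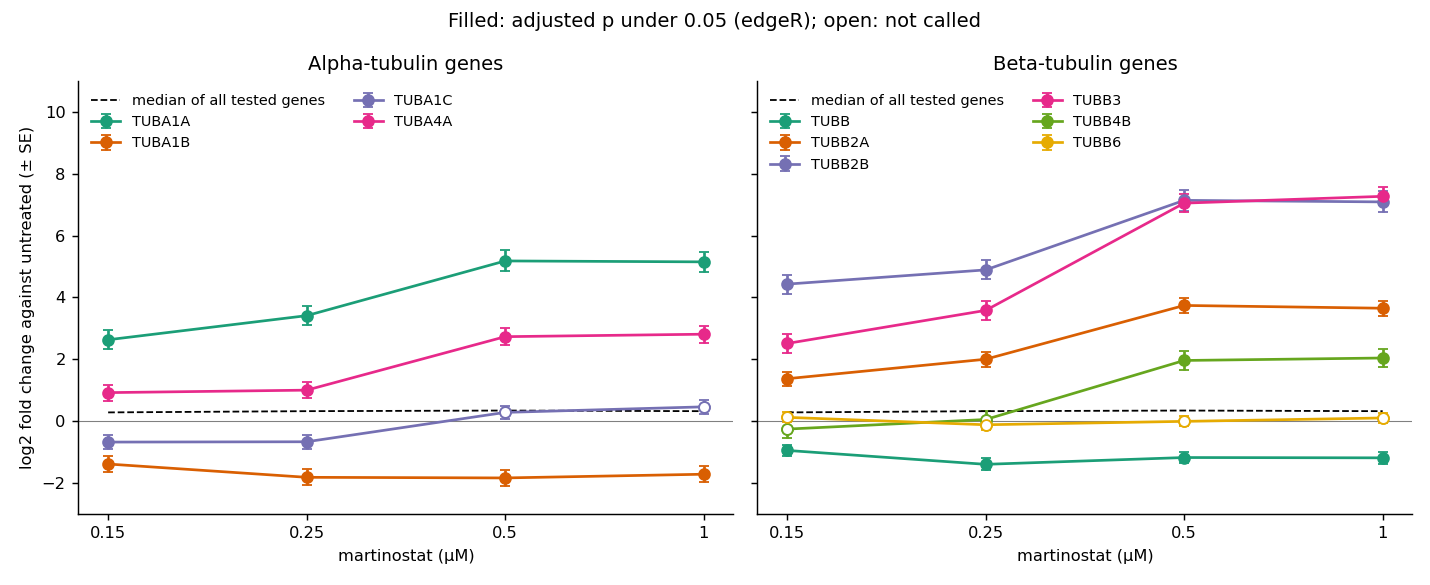
log2 fold change against untreated cells (y axis, ± SE from the edgeR fit on 15 libraries) of the 4 alpha-tubulin genes (left) and the 6 beta-tubulin genes (right) at each martinostat concentration in µM (x axis). Filled points passed an adjusted p of 0.05 and open points did not; the dashed line is the median of all tested genes, at 0.28 to 0.34. TUBA1B and TUBB lie below 0 at all concentrations, and TUBB2B and TUBB3 end above 7.

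The concentrations were then compared with each other, to see where the changes occurred. From 0.15 to 0.25 µM only TUBB3 was called (log2 fold change 1.07 ± 0.23, edgeR adjusted p = 0.00488), 1 of 10 genes higher beside 4.96% of all tested genes. This count was 2 without untreated replicate 3, 3 without replicate 3 at 0.25 µM or without replicate 3 at 0.5 µM, and 5 without the last pair together. The share of all tested genes called in either direction at this step was 12.3% with all libraries, and 10.4, 8.14, 16.4 and 15.3% in those 4 settings. From 0.25 to 0.5 µM, 7 of 10 genes were called higher, beside 14.4% of all tested genes. Their log2 steps were 0.96 ± 0.22 for TUBA1C, 1.73 ± 0.26 for TUBA4A, 1.74 ± 0.23 for TUBB2A, 1.77 ± 0.29 for TUBA1A, 1.92 ± 0.30 for TUBB4B, 2.26 ± 0.27 for TUBB2B and 3.47 ± 0.22 for TUBB3. TUBA1B (-0.02 ± 0.25) and TUBB (0.22 ± 0.19) were not called at this step (edgeR adjusted p = 0.964 and 0.428). From 0.5 to 1 µM none of the 10 was called by edgeR, nor was any other tested gene (0.0%). At that step 372 of the 23711 genes (1.57%), and 0 of the 10, had an unadjusted p under 0.05 in edgeR, and DESeq2 called 0 genes as well. Over the whole range of treatment, 1 against 0.15 µM, the same 7 genes as at the step to 0.5 µM were called higher, beside 21.5% of all tested genes.

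Levels of different genes were compared per kilobase of merged exon length. In untreated cells TUBB led with 746 ± 55.3 CPM per kb (SD, n = 3), followed by TUBB4B with 365 ± 6.22, TUBA1B with 217 ± 8.51, TUBA1C with 109 ± 3.76 and TUBB6 with 59.7 ± 1.91 CPM per kb. TUBB2A (6.69 ± 0.607), TUBA1A (6.29 ± 2.67) and TUBA4A (4.33 ± 0.198 CPM per kb) were lower, the first pair within their spread, and TUBB2B was at 0.991 ± 0.147. At 1 µM TUBB4B led with 1499 ± 186 CPM per kb, and TUBB (326 ± 9.35), TUBA1A (224 ± 27.9), TUBA1C (149.8 ± 6.81) and TUBB2B (135 ± 19.1) followed, the last pair within their spread. TUBB2A was at 84.2 ± 4.86 CPM per kb, TUBA1B (66.0 ± 2.31) and TUBB6 (64.1 ± 1.75) did not differ beyond their spread, and TUBA4A was lowest of these at 30.5 ± 1.25. This order depends on the length used. Per kb of the main transcript alone, a choice made after seeing the data, TUBB (1207 ± 89.6) still led in untreated cells, with TUBB4B (476 ± 8.1) and TUBA1B (476 ± 18.7) within their spread. For TUBA1B, 72.6% of the main transcript lies under the antisense gene TUBA1B-AS1, and per kb of main transcript free of other genes, also chosen after seeing the data, TUBA1B was at 1741 ± 68.4 and TUBB at 1535 ± 114 CPM per kb in untreated cells. On that length TUBA1B stood at 530.3 ± 18.5 and TUBB6 at 134 ± 3.66 at 1 µM, apart from each other. TUBB3, with 122 such bases, was at 339 ± 67.1 on that length at 1 µM, and at 5.58 ± 1.1 per kb of merged exons.

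Per kb of merged exons, treatment exchanged the leading isotype in both families. TUBA1B made up 64.5 ± 0.322% (SD, n = 3) of the summed alpha-tubulin genes per kb in untreated cells, then 42.2 ± 3.27%, 30.0 ± 2.58% and 13.1 ± 2.24% with rising concentration, and 14.1 ± 1.35% at 1 µM. TUBA1A went from 1.86 ± 0.755% through 19.6 ± 1.96% and 32.4 ± 2.49% to 51.5 ± 4.6% at 0.5 µM and 47.5 ± 2.81% at 1 µM. The share of TUBA1C had group means of 29.1 to 34.2%, while TUBA4A went from 1.29 ± 0.094 to 6.49 ± 0.278%. Counted directly, TUBA1A had 0.0309 ± 0.0123 counts for each count of TUBA1B in untreated cells and 3.64 ± 0.589 at 1 µM. In the beta family TUBB fell from 63.2 ± 1.39 to 15.5 ± 1.95% and TUBB4B rose from 31.0 ± 1.27 to 70.8 ± 2.11%. TUBB2B reached 6.38 ± 0.335% at 1 µM, from 0.0844 ± 0.0142% in untreated cells. Taken per base of the main transcript free of other genes, TUBA1B was 87.4 ± 0.122% of the alpha genes in untreated cells, and at 1 µM it (36.3 ± 2.68%) and TUBA1A (37.2 ± 3.06%) did not differ beyond their spread, while TUBA1C went from 11.3 ± 0.382 to 21.1 ± 0.555%. On that scale TUBB4B still led the beta genes at 1 µM, with 62.8 ± 2.40% beside 20.0 ± 2.35% for TUBB when TUBB3 was left out, and 57.1 ± 1.87% beside 18.2 ± 2.32% when it was included at 9.09 ± 1.17%. TUBA1B-AS1 itself had 14 to 27 counts in untreated and 20 to 113 in treated libraries.

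**Figure D3:**
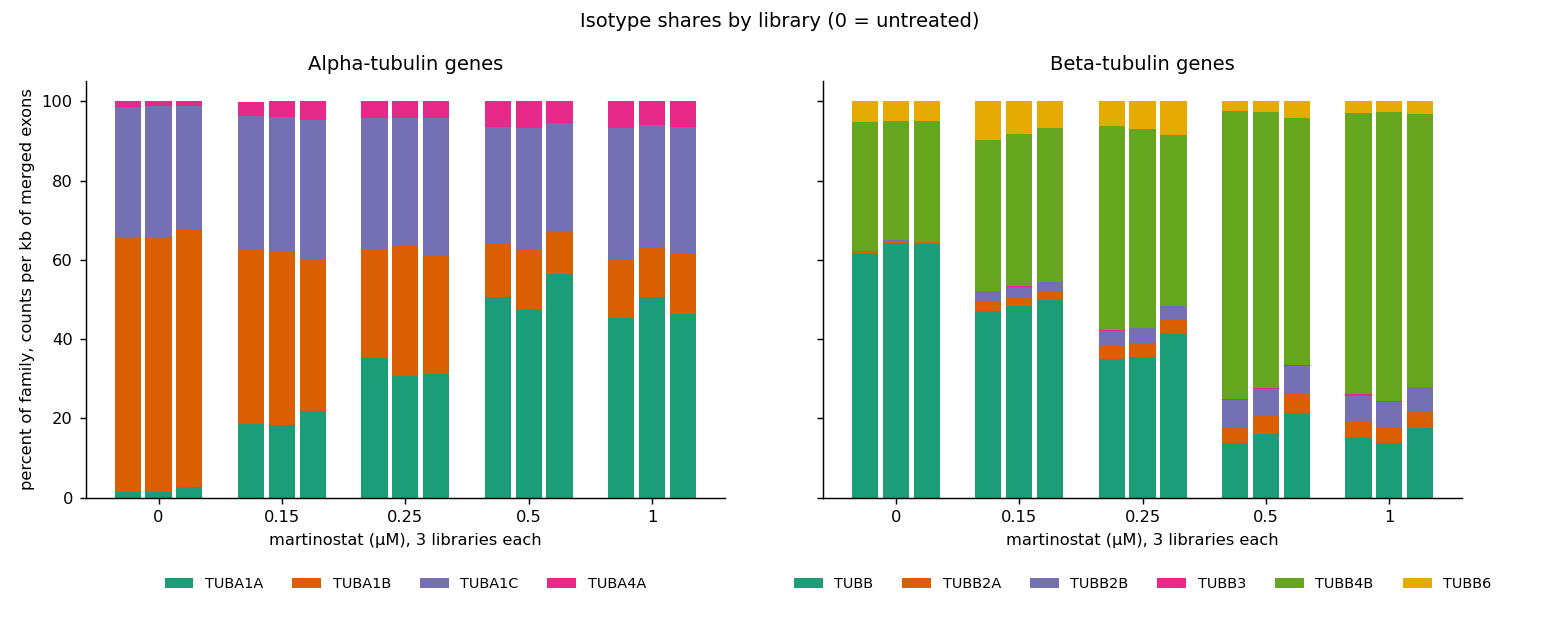
Share of each isotype in the summed alpha-tubulin (left) and beta-tubulin (right) genes, in percent of counts per kb of merged exons (y axis), for each of the 15 libraries grouped by martinostat concentration in µM (x axis, 0 = untreated). TUBA1B gives way to TUBA1A and TUBB to TUBB4B, with TUBA1C at 29.1 to 34.2% in the group means; TUBB3, whose level is uncertain, has group means of 0.00306 to 0.263% on this length and cannot be made out.

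Summed over genes per kb of merged exons, alpha- and beta-tubulin mRNA went down and then up. The 4 alpha genes together were at 336 ± 12.0 CPM per kb (SD, n = 3) in untreated cells, and with rising concentration 197 ± 31.2, 205 ± 55.6, 450.1 ± 125 and 470.1 ± 31.5. The 6 beta genes together were at 1178 ± 62.5, 794 ± 68.0, 772 ± 186, 2047 ± 834 and 2114 ± 200 CPM per kb in the same order. At 0.15 µM and at 1 µM the libraries of both sums did not overlap with the untreated ones, below them at 0.15 µM and above them at 1 µM. The beta sum showed the same on both other lengths, with or without TUBB3, and the alpha sum did per kb of main transcript, with 669.7 ± 25.2 in untreated cells and 948 ± 68.1 at 1 µM. Per kb of main transcript free of other genes, the alpha sum was instead lower than in untreated cells at every concentration, with 1992 ± 76 untreated and 1465 ± 63.9 at 1 µM and no overlap between libraries. TUBA1B-AS1 lies on the strand opposite TUBA1B, and the strand setting of the counting is not given. Which length applies to TUBA1B, and so to the alpha sum, is therefore not known.

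The genes are so alike in sequence that reads could be credited to the wrong copy. Coding sequences were 84.4 to 97.2% identical among the 4 alpha genes and 81.0 to 98.2% among the 6 beta genes, the closest being TUBB2A and TUBB2B (98.2%) and TUBA1A and TUBA1B (97.2%). Of all windows of 100 bases along the main transcript, 55.6% for TUBB2A, 48.7% for TUBB2B, 37.2% for TUBA1B and 21.2% for TUBA1A occurred unchanged in another tubulin gene or pseudogene. The share was 12.3% for TUBA1C and at most 5.4% for the other 5 genes. How multi-mapped reads were counted is not given in the sources used here, and values of single genes within these groups are uncertain to that extent. With TUBA1A, TUBA1B and TUBA1C summed before the fit, the log2 fold changes with rising concentration were -0.78, -0.72, 0.39 and 0.46, each ± 0.22. TUBB2A and TUBB2B summed gave 2.56 ± 0.26, 3.08 ± 0.27, 5.16 ± 0.29 and 5.10 ± 0.29.

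Other genes of the tubulin pathway were taken from lists chosen by function. Of 9 further alpha- and beta-tubulin genes tested, 4 were called higher and 3 lower at 1 µM (44.4 and 33.3%, where all tested genes were at 38.8 and 27.5%), with a median log2 fold change of 0.63 beside 0.32 for all tested genes. Among the 4, TUBA3E had 0 counts in all untreated libraries and passed the filter on low counts through treated libraries alone. TUBB4A, a beta isotype of brain, rose from 5.41 ± 0.684 to 314 ± 44.9 CPM (log2 fold change 5.86 ± 0.40, edgeR adjusted p = 4.9e-09). TUBA3C, an alpha isotype best known from testis, fell from 58.1 ± 1.70 to 26.6 ± 2.81 CPM (-1.13 ± 0.21, edgeR adjusted p = 0.000106). Of 13 genes for gamma-, delta- and epsilon-tubulin and the gamma-tubulin ring, which nucleates microtubules, 3 were higher and 6 lower (23.1 and 46.2%, beside the same 38.8 and 27.5%), with a median of -0.81. The ring components MZT1 (-1.61 ± 0.20) and TUBGCP4 (-1.44 ± 0.14) were the lowest of those called and above 10 CPM on average, and TUBGCP6 (1.23 ± 0.21) and TUBGCP5 (0.42 ± 0.15) the highest.

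Most genes of the folding machinery of tubulin fell. Of 21 genes for the chaperonin CCT, prefoldin and the tubulin cofactors, 13 were called lower and 3 higher at 1 µM (61.9 and 14.3%, where 27.5% of all tested genes were lower and 38.8% higher), with a median log2 fold change of -1.16 beside 0.32 for all tested genes. At 0.15 µM it was 14 lower and 1 higher (66.7 and 4.76%, against 19.4 and 31.9% of all tested genes), with a median of -0.70 beside 0.28. CCT5, a subunit of the chaperonin ring that folds tubulin and actin, went from 1118 ± 99.9 to 199.9 ± 17.1 CPM (-2.48 ± 0.16, edgeR adjusted p = 1.32e-10). VBP1, a prefoldin subunit, went from 316 ± 30.9 to 67.6 ± 3.83 CPM (-2.22 ± 0.17, edgeR adjusted p = 1.03e-09). TBCB, a cofactor that binds alpha-tubulin, rose from 36.5 ± 2.70 to 80.0 ± 19.6 CPM (1.13 ± 0.23, edgeR adjusted p = 0.000328), and PFDN1, another prefoldin subunit, fell by 1.03 on the log2 scale (edgeR adjusted p = 1.58e-05).

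The mRNAs of the enzymes that acetylate and deacetylate alpha-tubulin changed separately. HDAC6 rose at every concentration, from 55.3 ± 1.95 CPM untreated to 99.7 ± 12.2 at 0.15 µM and 152 ± 12.3 at 1 µM (log2 fold change 0.85 ± 0.13 and 1.46 ± 0.13, edgeR adjusted p = 2.34e-05 and 1.17e-08). SIRT2 was at 55.4 ± 1.17 CPM untreated and 51.5 ± 3.21 at 0.15 µM, not called (edgeR adjusted p = 0.712), and rose to 127 ± 21.6 at 1 µM (1.20 ± 0.22, edgeR adjusted p = 8.36e-05). ATAT1, the acetyltransferase, was low and fell at 0.15 µM from 7.56 ± 0.397 to 4.88 ± 0.364 CPM (-0.63 ± 0.19, edgeR adjusted p = 0.011), and was at 6.77 ± 1.02 CPM at 1 µM (-0.16 ± 0.19, edgeR adjusted p = 0.48).

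Of 20 genes for enzymes that modify the tubulin tail, 11 were called higher and 2 lower at 1 µM (55.0 and 10.0%, against 38.8 and 27.5% of all tested genes), with a median log2 fold change of 1.23. Of the 20, 1 had 0 counts in all untreated libraries and passed the filter on low counts through treated libraries alone. VASH1, which removes the terminal tyrosine of alpha-tubulin, rose to 36.5 ± 5.51 CPM at 0.15 µM and was at 20.2 ± 4.78 CPM at 1 µM (4.06 ± 0.23, edgeR adjusted p = 2.87e-11), lower than at 0.15 µM (-0.85 ± 0.19, edgeR adjusted p = 0.00129). AGTPBP1, a deglutamylase, rose by 1.20 ± 0.17, while TTLL12 (-1.78 ± 0.18) and TTLL4 (-0.90 ± 0.18), members of the tubulin tyrosine ligase-like family, fell. For the autoregulation of tubulin mRNA, TTC5 was not called at 1 µM (0.22 ± 0.16, edgeR adjusted p = 0.225). SCAPER and CNOT11, which link TTC5 to the deadenylase complex, moved in opposite directions (0.76 ± 0.17 and -0.73 ± 0.14, edgeR adjusted p = 0.000557 and 0.000124). Of 24 genes for microtubule-associated and severing proteins, 12 were higher and 7 lower, with a median of 0.47. These shares, 50 and 29.2%, lie near the 38.8 and 27.5% of all tested genes. Of the 24, 4 had 0 counts in all untreated libraries and passed the filter on low counts through treated libraries alone. Those 4 could not have been called lower, so the counts for this list are limited by the filter. MAPT, the gene of tau, rose from 10.0 ± 0.399 to 112 ± 10.1 CPM (3.48 ± 0.17) and MAP1S by 1.44 ± 0.24, while the plus-end protein MAPRE1 (-0.88 ± 0.15) and MAP4 (-0.81 ± 0.16) fell.

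**Figure D4:**
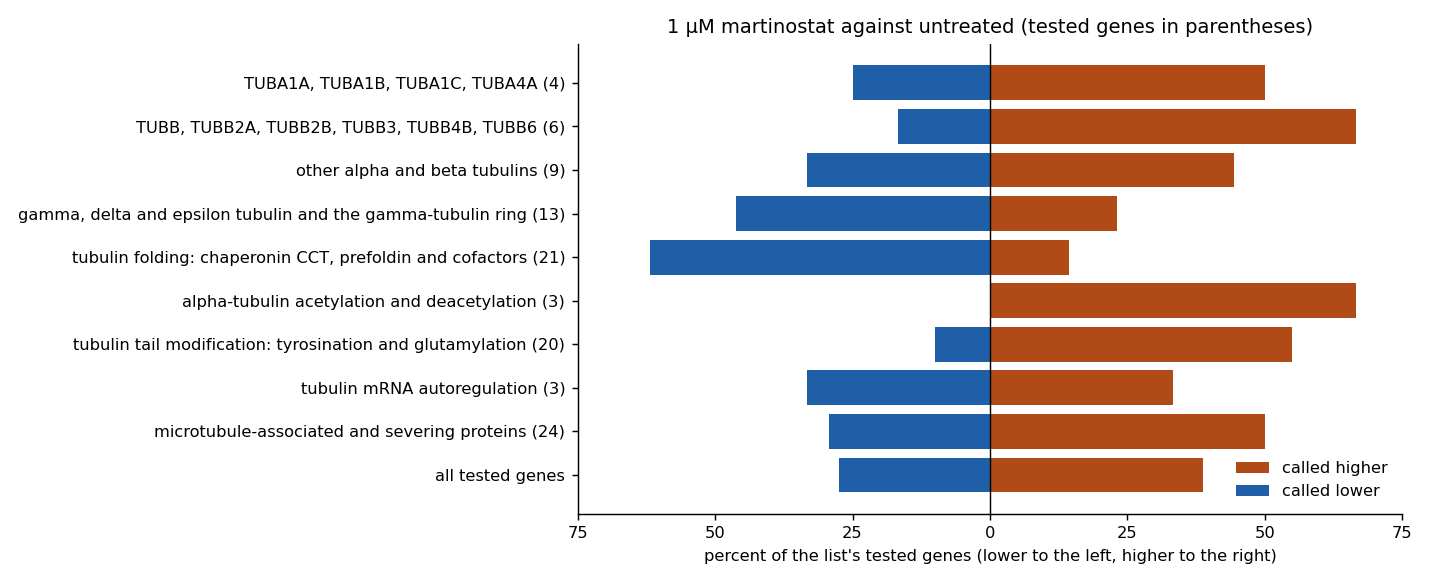
Percent of the tested genes of each list that were called higher (right) or lower (left) at 1 µM martinostat against untreated cells (x axis), with the number of tested genes in parentheses and all 23711 tested genes in the bottom row. The folding list lies mostly to the left, with 13 of 21 genes lower, and the tail modification list mostly to the right, with 11 of 20 higher. Some tested genes had 0 counts in all untreated libraries and could not be called lower. These were 4 in the microtubule-associated list and 1 each in the tail modification and other tubulin lists.

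The genes most like the extremes were found over 10118 other genes that averaged 10 CPM or more, by the root mean square difference in log2 fold change over the 4 concentrations. For TUBB3, the highest at 1 µM, these were FAUP4 (0.293), PLIN4 (0.596), the gene of a lipid droplet protein, and ENSG00000228793 (0.603). For TUBA1B, the lowest at 1 µM, they were NCAPH (0.037), a condensin subunit, MRPL18 (0.067), a protein of the mitochondrial ribosome, and PRELID1 (0.068), a mitochondrial lipid carrier.

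Because several risen isotypes are known from neurons, markers of other cell types were read beside them. The 9 neuron markers, none of them a tubulin, summed to 10.3 to 15.8 CPM in untreated and 92.5 to 128 CPM at 1 µM, with 6 of the 9 at 0 in untreated cells. Most of that sum was SYP, the gene of synaptophysin, at 84.1 ± 21.4 CPM at 1 µM. Of the 7 neuron markers that passed the filter on low counts, 4 were at 0 in untreated cells and passed through treated libraries alone, so no count of calls is given for this list. The 3 fibroblast markers summed to 21.9 to 25.4 CPM untreated and 301 to 486 CPM at 1 µM. Most of the latter sum was COL1A1, at 398 ± 94.4 CPM. Of the 3, 1 was called higher and 1 lower (33.3% each), near the 38.8 and 27.5% of all tested genes. The 8 markers of K562 cells were all detected untreated, at 2644 to 2879 CPM in sum. Their sum fell to 728 to 882 CPM at 1 µM. Of the 8, 6 were called lower and 1 higher at 1 µM, against 27.5 and 38.8% of all tested genes. TFRC, the transferrin receptor, led that list in every group, at 1228 ± 109.9 CPM untreated and 485 ± 59.0 at 1 µM. Whether these markers share a cause with the change in tubulin isotypes was not tested.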

How the data were processed

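Poly(A) RNA of 15 K562 libraries, made with a directional kit, was sequenced as paired-end reads. The authors deposited raw counts per gene in 1 table and FPKM per gene in a file for each library. Per the study's methods and processing notes, reads were trimmed with Trim Galore 0.6.10, and the methods also name Trimmomatic. The trimmed reads were aligned to hg38 with HISAT2 2.2.1, sorted with SAMtools 1.21 and counted with featureCounts 1.5.3. The strand and multi-mapping settings of the counting are not given in the sources used here. The deposited FPKM values use the whole span of a gene as its length, so levels per kb were computed from the counts and the merged exon length of the supplied annotation.

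The counts were tested in R 4.3.3 with edgeR 4.0.16 (filterByExpr, TMM, robust quasi-likelihood fit of the 5 groups on all 15 libraries), with Benjamini-Hochberg adjustment over all 23711 genes tested. "Called" means an adjusted p under 0.05. The SE of a log2 fold change is its size divided by the square root of the F statistic. Fold changes of genes with few or no untreated counts depend on edgeR's prior count. The labels name the replicates biological but not separate cultures, and p-values measure the spread between these libraries. The lowest chi-square per degree of freedom between replicates was 6.49, so no library appeared to be deposited more than once. DESeq2 1.42.0 on the counts and limma 3.58.1 on log2(FPKM + 1) were alternatives, as were other scalings and filters and leaving out each library. Scripts were tested on simulated data. Total counts of 23755510 to 32805574 per library set the precision, and TUBB3, with 5 to 8 counts in untreated libraries, had the least.

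The 10 genes, the pathway and marker lists and the tests were chosen with earlier results of these data known. From each pathway list, genes called at 1 µM that averaged 10 CPM or more were named, the 2 highest and the 2 lowest by log2 fold change, with ATAT1, HDAC6, SIRT2 and TTC5 named always. The gene of highest mean was named for each marker list given, 1 further list is not reported here, and for the highest and lowest tubulin gene the 3 genes nearest in log2 fold change. Promoter sequence is from RefSeq (GRCh38.p14). Protein features were not analysed here.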

Additional observations from a re-analysis of the deposited data

Results flagged for a closer look

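TUBA1C and TUBB4B had values below untreated cells at 0.15 µM and above them at 1 µM, in TMM-scaled CPM. For TUBA1C, all 3 libraries at 0.15 µM were below all untreated libraries and all 3 at 1 µM were above them. The difference between these concentrations was 1.15 ± 0.22 (SE) on the log2 scale (edgeR adjusted p = 0.000329). For TUBB4B, the 3 libraries at 0.15 µM were likewise below and the 3 at 1 µM above the untreated ones, and the difference between the concentrations was 2.30 ± 0.30 (edgeR adjusted p = 7.87e-06). Of the separate changes against untreated cells, that of TUBA1C at 0.15 µM and that of TUBB4B at 1 µM passed the threshold, while TUBA1C at 1 µM and TUBB4B at 0.15 µM did not, and the latter turned to 0.10 under 4 alternatives. Groups of 3 libraries are too small for a check of single outlying values.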

How the results depend on the processing

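Over the 4 comparisons with untreated cells, 1015 of 1076 alternative log2 fold changes of the 10 genes kept their side of the threshold, 998 of them with the same sign, 35 passed it newly, 17 lost it and 9 turned sign and were called. The 17 uncalled values that turned sign were of TUBB4B at 0.15 µM (0.10) and at 0.25 µM (-0.11 to -0.01) and of TUBB6. The 9 that were called were all of TUBB6. At 0.25 µM it was 0.39 with library totals, 0.33 with limma on log2(FPKM + 1), with or without the filter, and 0.38 with log2(FPKM + 0.1). At 0.5 µM it was 0.34 with library totals, 0.39 with TMM on genes above 10 CPM, 0.29 with limma on log2(FPKM + 1), with or without the filter, and 0.33 with log2(FPKM + 0.1). TUBA1A, TUBA1B, TUBA4A, TUBB, TUBB2A and TUBB2B kept their calls at all 4 concentrations under every alternative run. TUBB3 lost its call at 0.15 µM on log2(FPKM + 1), and has no value with at least 10 counts in every library. TUBA1C was called higher at 1 µM under 14 of 27 alternatives. TUBB4B was called at 0.25 µM with library totals and without replicate 3 of both 0.25 and 0.5 µM. The number of the 10 genes called from 0.15 to 0.25 µM, 1 in the report, was 2 with DESeq2's size factors in edgeR, 3 with library totals, 3 with TMM on genes above 10 CPM, 4 with no filter, 2 with at least 10 counts in every library, 3 with DESeq2, 2 on log2(FPKM + 1) and 3 on log2(FPKM + 0.1), beside 6.64 to 15.7% of all tested genes. The cause was not tested.

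Without length, shares of counts were 59.7% and 12.7% for TUBA1B, 75.1% and 24.4% for TUBB and 18.4% and 55.6% for TUBB4B in untreated cells and at 1 µM. Per main transcript base free of other genes, chosen after seeing the data, they were 0.766% and 37.2% for TUBA1A, 87.4% and 36.3% for TUBA1B, 70.0% and 20.0% for TUBB and 23.6% and 62.8% for TUBB4B.

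Leaving out libraries gave 7 to 8 called genes at 0.15 µM, 7 to 9 at 0.25 µM, 8 to 9 at 0.5 and at 1 µM, 1 to 5 from 0.15 to 0.25 µM, 7 from 0.25 to 0.5 µM, 0 from 0.5 to 1 µM, 7 to 8 from 0.15 to 1 µM and 9 over the 5 groups. In those settings 42.7 to 57.2%, 54.9 to 63.5%, 60.4 to 66.6% and 59.9 to 69.9% of all tested genes were called with rising concentration. Between concentrations the shares were 6.87 to 16.4%, 23.4 to 33.7%, 0.0% and 35.8 to 51.1%, and over the groups 66.2 to 77.1%. The replicate block changed no call, with 8 genes called at each concentration, 1, 7, 0 and 7 between concentrations and 9 over the groups. With the block, 51.2, 62.2, 66.7 and 66.7% of all tested genes were called against untreated cells. Its shares were 12.2, 30.2, 0.0 and 44.6% between concentrations and 73.4% over the groups. Same-numbered libraries correlated at -0.0663 to 0.579, above 0.1 throughout in 1 of 10 pairs of groups, and 19 of 60 matches were best with the own number, so the numbers were not taken to pair the libraries.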

Other observations

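Tubulin genes and pseudogenes outside the 10 also moved, and were named after their values were seen. TUBB1, the beta isotype of platelets, went from 2.23 ± 0.375 CPM (SD, n = 3) in untreated cells to 0.151 ± 0.0199 at 1 µM, a log2 fold change of -3.84 ± 0.69 (SE; edgeR adjusted p = 7.78e-05). TUBAL3, an alpha-tubulin-like gene, rose and then fell. It was at 2.87 ± 0.585 CPM in untreated cells and, with rising concentration, at 6.51 ± 0.64, 4.20 ± 0.746, 0.506 ± 0.445 and 0.778 ± 0.343 CPM. Against untreated cells its log2 fold change was 1.18 ± 0.45 at 0.15 µM and -1.88 ± 0.50 at 1 µM (edgeR adjusted p = 0.0371 and 0.00311).

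Among the pseudogenes, TUBA5P went from 0.199 ± 0.106 to 10.0 ± 1.57 CPM at 1 µM (5.63 ± 0.36, edgeR adjusted p = 1.2e-10). TUBB8P7 had 0 counts in all 3 untreated libraries and 63 to 136 counts at 1 µM. TUBBP1, which shares windows of 100 bases with TUBB, fell from 39.2 ± 3.05 to 17.6 ± 1.29 CPM (-1.16 ± 0.31, edgeR adjusted p = 0.0038). Whether reads of the parent genes enter these values was not tested.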
